A study of Homo sapiens with 3 samples.

Results

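Out of 26485 counted genes, 6, namely B4GALT5, ZFP91, HYI, MOV10, RBM4 and NR1H3, were taken because their counts were higher than in siNC with both siRNAs against PRMT6, and 2 more, RBM4B and ACP2, because they lie on the opposite strand beside RBM4 and NR1H3. All 8 genes were found in the table by name. The cells were HEC1B, a line established from a human endometrial cancer, and RNA was taken at 48 h for 1 library with the control siRNA siNC (genotype label WT) and for 2 libraries labelled PRMT6 knockdown, one made with siPRMT6-1 and the other with siPRMT6-2. PRMT6 methylates arginines, among them arginines of histones. In the sample descriptions the same siRNAs are called si2 and si3. Whether each library had a culture of its own is not in the labels, so every p-value measures only the spread between these libraries.

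The 8 genes belong to different pathways. B4GALT5 makes lactosylceramide, the precursor of most complex glycosphingolipids, by adding galactose to glucosylceramide in the Golgi. ZFP91 is a zinc finger protein that acts as a ubiquitin ligase and takes part in noncanonical NF-kappaB signalling, and MOV10 is an RNA helicase that works with Argonaute proteins and restrains retroelements. RBM4 and RBM4B are closely related RNA-binding proteins that regulate splicing. NR1H3 encodes the liver X receptor alpha, a nuclear receptor that is activated by oxysterols and drives genes of cholesterol export and fatty acid synthesis. ACP2 encodes a lysosomal acid phosphatase, and HYI is the putative hydroxypyruvate isomerase.

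The libraries were shallow, with totals of 410916 (siNC), 381628 (siPRMT6-1) and 362080 counts (siPRMT6-2). A count of 3 equalled 7.77, 8.09 and 9.09 CPM (counts scaled to the TMM-adjusted library size) in the same order. PRMT6, the target, had 25, 4 and 7 counts. The siPRMT6-2 library stood apart. Its 48 listed interferon-stimulated genes summed to 3477 counts against 297 in siNC and 383 in siPRMT6-1, or 13.7 times the siNC level (95% exact binomial interval 12.2 to 15.5). Epithelial markers gave 1628, 889 and 1106 counts, mostly KRT8, but KRT19 and CDH1 were at 0 in every library. The 5 leukocyte markers had 0, 0 and 1 count, and COL1A1 held most of the fibroblast marker counts (515, 354 and 370). Of 148 antisense-named genes overlapping a partner by 100 exon bases or more, 122 exceeded it in siNC, so the strand that a count stands for is uncertain for every gene here.

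What the genes share in sequence bears on which reads can be told apart. NR1H3 and ACP2 overlap at their 5′ ends on opposite strands. The window of RefSeq (GRCh38.p14) around 1 of the 4 NR1H3 starts, 250 bases before to 50 after it, lies at chr11:47248645-47248944 on the plus strand, and 180 of its bases are also in the window of an ACP2 start on the minus strand (chr11:47248765-47249064). The window of another ACP2 start (chr11:47248579-47248878) shares 234 bases with the same NR1H3 window, among them those left in small letters. The NR1H3 window is shown with the 180 bases in capitals, because the pair was chosen for this position.
NR1H3: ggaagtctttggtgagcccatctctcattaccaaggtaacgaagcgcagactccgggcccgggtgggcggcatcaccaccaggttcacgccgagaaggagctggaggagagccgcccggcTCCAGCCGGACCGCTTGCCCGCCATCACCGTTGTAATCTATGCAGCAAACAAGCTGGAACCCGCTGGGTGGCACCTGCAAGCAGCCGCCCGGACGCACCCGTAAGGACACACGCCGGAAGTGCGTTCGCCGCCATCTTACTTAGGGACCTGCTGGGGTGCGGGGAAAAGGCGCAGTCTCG

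RBM4 and RBM4B are paralogs placed tail to tail, and a read from a stretch that is identical in both cannot be assigned to either. Over 1071 aligned bases of their coding sequences (1 transcript each, GENCODE release 29) 942 were identical, which is 88.0%. The longest identical run was 198 bases, from base 28 to base 225 of both coding sequences. Of the 1694 bases of the RBM4 transcript 317 lay in stretches of at least 50 bases found exactly in RBM4B. The header of the count table names no option for reads that map to several places. The next lines show coding bases 186 to 305, where the identical run ends, with the 12 differing bases in capitals.
RBM4: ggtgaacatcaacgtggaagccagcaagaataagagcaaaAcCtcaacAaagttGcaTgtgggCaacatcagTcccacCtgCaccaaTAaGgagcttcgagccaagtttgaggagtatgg
RBM4B: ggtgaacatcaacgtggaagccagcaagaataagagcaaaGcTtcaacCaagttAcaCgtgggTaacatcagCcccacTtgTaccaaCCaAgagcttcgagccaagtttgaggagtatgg

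The promoter windows of the 2 paralogs were not aligned and are compared by their motifs only. The RBM4 window (chr11:66638453-66638752, plus strand) holds 5 CCAAT boxes, and the RBM4B window (chr11:66677838-66678137, minus strand) holds 1. The letters CCAAT were searched on both strands and are in capitals. They occur in 34.6% of all 34943 promoter windows of this length, and 0.361% of them hold 5 or more.
RBM4: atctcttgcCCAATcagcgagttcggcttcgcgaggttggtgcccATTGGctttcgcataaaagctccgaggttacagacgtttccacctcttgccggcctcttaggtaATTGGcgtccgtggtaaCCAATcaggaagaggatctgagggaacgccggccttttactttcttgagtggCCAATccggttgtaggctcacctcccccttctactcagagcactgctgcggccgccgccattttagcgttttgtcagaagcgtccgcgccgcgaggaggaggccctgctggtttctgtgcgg
RBM4B: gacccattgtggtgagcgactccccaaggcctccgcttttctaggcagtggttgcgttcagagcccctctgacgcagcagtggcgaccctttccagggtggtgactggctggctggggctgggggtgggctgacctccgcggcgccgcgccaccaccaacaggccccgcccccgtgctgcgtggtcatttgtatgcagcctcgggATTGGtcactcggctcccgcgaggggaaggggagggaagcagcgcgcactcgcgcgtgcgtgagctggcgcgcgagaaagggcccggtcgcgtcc

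B4GALT5, the gene with the highest ratios to siNC, has a single window (chr20:49713829-49714128, minus strand). It holds 2 matches to the palindromic NRF1 consensus, searched on both strands, which 5.73% of all windows hold at least once, and 1 match to TTCNNNGAA, the gamma-activated site, which 7.66% hold. These matches are in capitals.
B4GALT5: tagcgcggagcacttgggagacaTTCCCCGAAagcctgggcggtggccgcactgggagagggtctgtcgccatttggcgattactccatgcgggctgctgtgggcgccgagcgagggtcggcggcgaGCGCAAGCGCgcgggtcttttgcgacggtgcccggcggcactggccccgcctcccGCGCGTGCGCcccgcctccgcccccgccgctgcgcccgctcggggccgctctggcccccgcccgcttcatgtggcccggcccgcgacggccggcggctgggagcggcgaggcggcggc

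RefSeq windows were found for 7 of the 8 genes, 13 windows in all. The core of the interferon-stimulated response element, searched on both strands, was in 0 of the 13 and in 3.57% of all windows. The gamma-activated site was in 2 of the 13, the B4GALT5 window and an ACP2 window (chr11:47248579-47248878), so it was not particular to B4GALT5. The ETS letters CCGGAAG were in 2 of the 13 and in 10.2% of all. Those 2 are the overlapping NR1H3 and ACP2 windows, and both matches are the same site in their 180 shared bases. TATAAA was in 0 of the 13 and in 11.6% of all, and the 3 MOV10 windows held none of the 6 motifs searched. A match is a description of letters only.

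B4GALT5 gave 36 counts in siNC, 76 with siPRMT6-1 and 97 with siPRMT6-2. Both knockdown libraries lay above siNC, and their 95% exact Poisson intervals (59.9 to 95.1 and 78.7 to 118) did not reach that of siNC (25.2 to 49.8). As CPM ratios to siNC these were 2.20 (1.46 to 3.36, exact binomial) and 3.15 (2.13 to 4.76). Both ratios share the single siNC count, and the 6 genes were chosen for these values, so the intervals cover counting error only and are no test of a response. The gene lies on chromosome 20 (hg38, 49632946 to 49713884, minus strand), has 4727 exonic bases in the table and shares none with another gene on either strand.

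For NR1H3 the counts were 35, 70 and 83, in the order siNC, siPRMT6-1, siPRMT6-2, giving ratios to siNC of 2.08 (1.37 to 3.22) and 2.77 (1.85 to 4.24). Neither knockdown interval reached that of siNC. HYI had 32, 55 and 73 counts, 1.79 times (1.14 to 2.86) and 2.67 times (1.74 to 4.18). MOV10 had 32, 54 and 68 counts, 1.76 times (1.11 to 2.81) and 2.48 times (1.61 to 3.91). In all 3 genes the siPRMT6-2 count was the highest and the siNC count the lowest, and for HYI and MOV10 the siPRMT6-1 interval overlapped that of siNC.

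For ZFP91 the counts were 25, 44 and 49, giving ratios of 1.83 (1.10 to 3.12) and 2.29 (1.39 to 3.87). RBM4 had 42, 71 and 62 counts, 1.76 times (1.19 to 2.64) and 1.73 times (1.15 to 2.62). RBM4 was the only member of the 6 in which siPRMT6-1 gave the higher count. For ZFP91 and RBM4 the Poisson intervals of both knockdown libraries overlapped that of siNC.

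**Figure D1:**
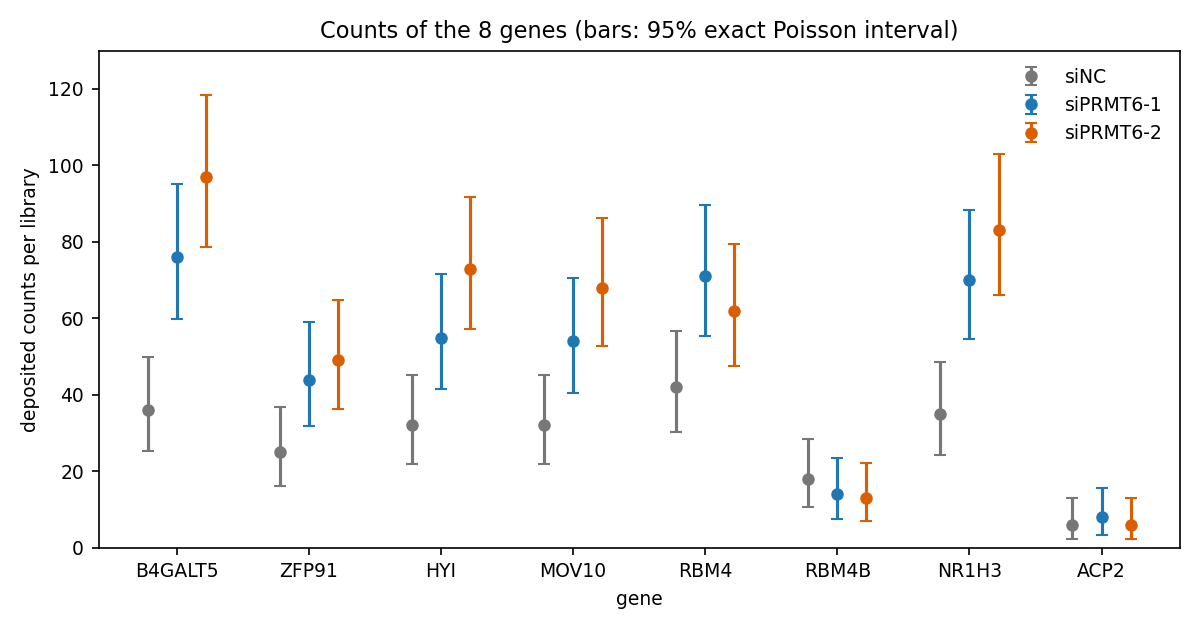
Deposited counts (y axis) of the 8 genes (x axis) in the siNC, siPRMT6-1 and siPRMT6-2 libraries, 1 library each. Points are counts and bars 95% exact Poisson intervals. B4GALT5 goes from 36 to 76 and 97 counts, while RBM4B stays between 13 and 18 and ACP2 between 6 and 8.

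The opposite-strand neighbours had ratios whose intervals held 1. RBM4B had 18, 14 and 13 counts, with all 3 intervals overlapping, and its ratio to siNC was 0.809 with siPRMT6-1 (0.373 to 1.72) and 0.844 with siPRMT6-2 (0.380 to 1.82). ACP2 had 6, 8 and 6 counts, 1.39 times siNC (0.422 to 4.85) and 1.17 times (0.313 to 4.37). The ACP2 intervals also held both NR1H3 ratios, while of the RBM4 ratios the RBM4B intervals held that with siPRMT6-2 (1.73) but not that with siPRMT6-1 (1.76). The difference between partners was not tested. In sum the 6 genes had 202, 370 and 432 counts, and the 2 neighbours 24, 22 and 19.

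**Figure D2:**
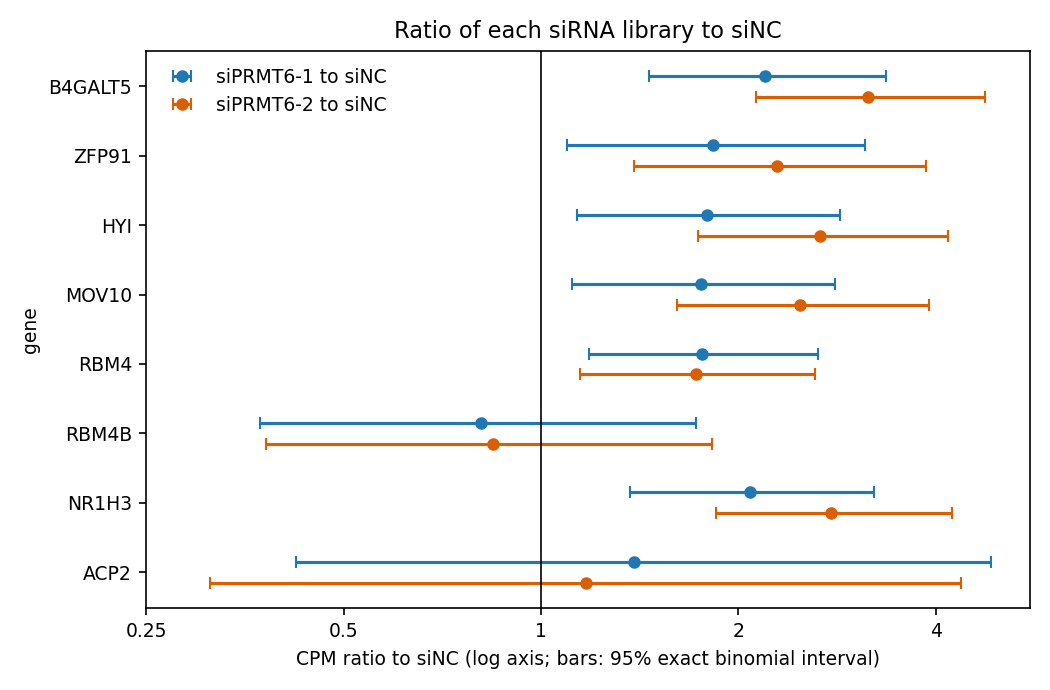
CPM ratio of each siRNA library to siNC (x axis, log scale) for the 8 genes (y axis), with 95% exact binomial intervals as bars and a line at 1. The intervals of the 6 genes chosen as higher lie above 1, and those of RBM4B and ACP2 span it.

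The model over both knockdown libraries gave no call. edgeR's quasi-likelihood test with Benjamini-Hochberg adjustment called 0 of 6803 genes (0% of those tested) and had 186 at an unadjusted p under 0.05, and DESeq2 called 0 with 13 at an unadjusted p under 0.05. The test had 1 residual degree of freedom, and took the spread of the single control to equal that between the knockdown libraries. Of the 8 genes 7 passed the filter on low counts, and ACP2 did not. The log2 fold changes of knockdown against siNC were 1.41 (SE 0.491) for B4GALT5, 1.27 (SE 0.487) for NR1H3, 1.15 (SE 0.504) for HYI and 1.08 (SE 0.499) for MOV10. They were 1.04 (SE 0.511) for ZFP91, 0.80 (SE 0.466) for RBM4 and −0.27 (SE 0.605) for RBM4B. The adjusted p of edgeR was 1.00 for all 7. An unadjusted p under 0.05 with a higher level was found for 4 of the 7, against 2.03% of all genes tested and 1.37% of those with at least 100 counts, which for genes chosen on this contrast is a description. By unadjusted p B4GALT5 stood at rank 50, NR1H3 at 72 and RBM4B at 4130 of 6803.

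A fold of at least 1.5 above siNC, on log2 CPM with a prior count of 2, was reached by 6 of the 7 tested genes with each siRNA. Over all genes tested 14.7% reached it with siPRMT6-1 and 17.9% with siPRMT6-2, and among the 1902 genes with at least 100 counts over the 3 libraries 5.05% and 8.68% did. A fold of 1.5 below siNC was reached by 13.9% and 15.4% of all genes tested, and by 8.62% and 13.7% of those with at least 100 counts. The 6 genes were chosen on this contrast, so nothing is read from their share. At this depth 6 of the 8 genes had at least 100 counts, from 118 for ZFP91 to 209 for B4GALT5, and RBM4B and ACP2 had 45 and 20.

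**Figure D3:**
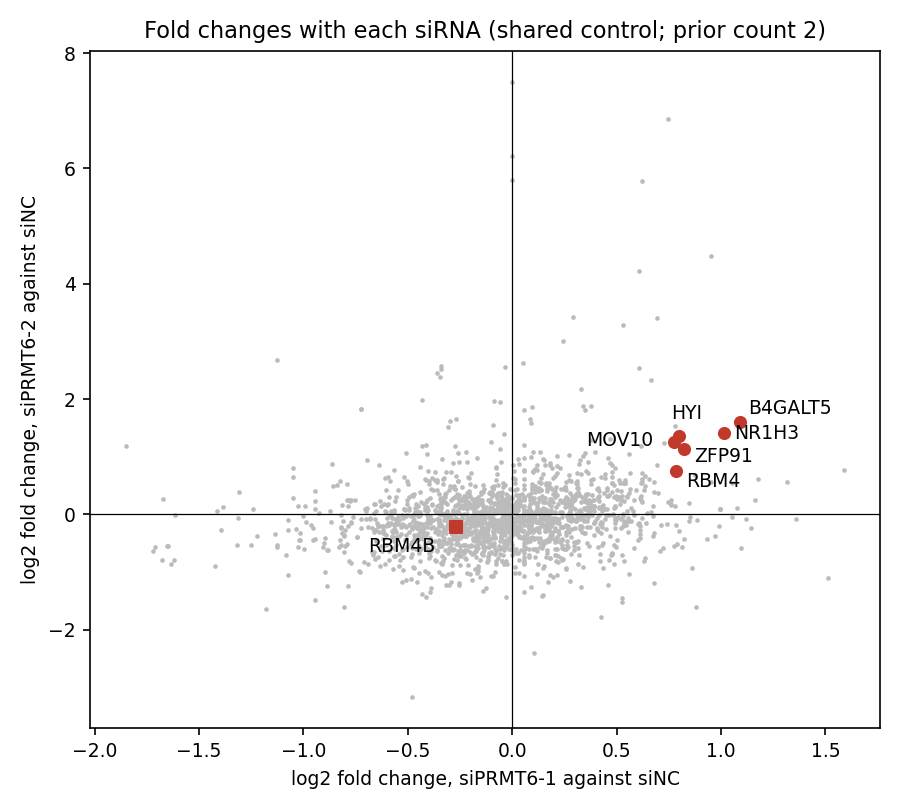
Log2 fold change against siNC with siPRMT6-1 (x axis) and siPRMT6-2 (y axis), on log2 CPM with a prior count of 2, for the 1902 genes with at least 100 counts (grey, members red) and for RBM4B (red square, 45 counts). Both axes share the siNC library, which by itself stretches the cloud along the diagonal. The 6 genes chosen as higher lie between 0.77 and 1.09 on the x axis and between 0.76 and 1.60 on the y axis.

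The values with the 2 siRNAs are set side by side as a description, since the genes were chosen for being high with both. The summed counts of the 6 genes were 1.31 times as high with siPRMT6-2 as with siPRMT6-1 (exact binomial interval 1.14 to 1.51), against 10.2 times for the interferon-stimulated list (9.17 to 11.4). HYI was 1.49 times as high (1.04 to 2.16) and B4GALT5 1.43 times (1.05 to 1.96), and with total counts as library sizes both intervals held 1. The ratio was 1.41 for MOV10 (0.975 to 2.06), 1.33 for NR1H3 (0.957 to 1.86), 1.25 for ZFP91 (0.816 to 1.92) and 0.981 for RBM4 (0.686 to 1.40). RBM4B had 1.04 (0.451 to 2.39) and ACP2 0.842 (0.241 to 2.77). The part of the interferon response of the siPRMT6-2 library in these values was not tested. The siPRMT6-1 ratios above, from 1.76 to 2.20 for the 6 genes, are the values without that library.

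The 2 pairs of opposite-strand neighbours differ in how much exon they share. NR1H3 (chromosome 11, 47248300 to 47269033, plus strand) shares 172 of its 2315 exonic bases with ACP2 (47239302 to 47248847, minus strand), at 47248676 to 47248847. In GENCODE these 172 bases hold 128 of NR1H3 UTR and 44 of its coding sequence, against 58 and 114 for ACP2. RBM4 (66638617 to 66668386, plus strand) and RBM4B (66664994 to 66677921, minus strand) overlap by 3393 bases of gene body and by 0 exon bases.

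**Figure D4:**
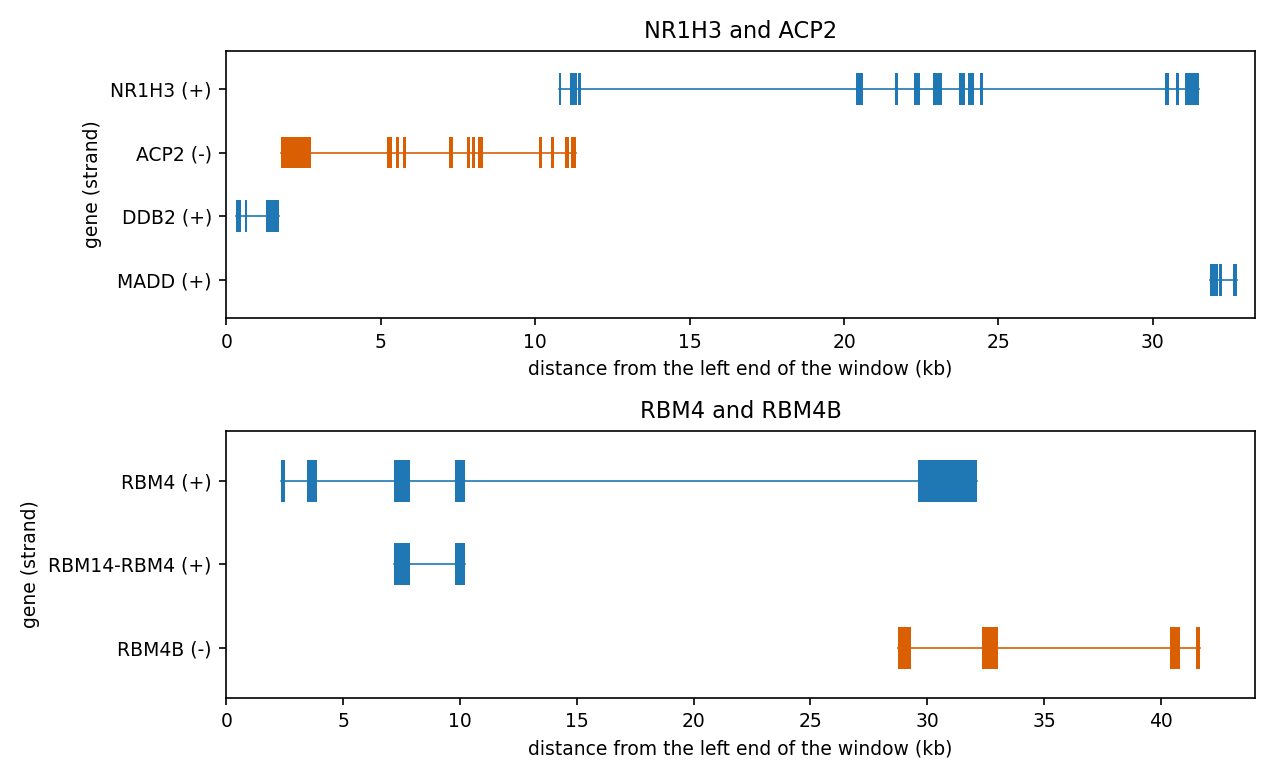
Exon models of the count table at the 2 loci, as distance from the left end of each window in kb (x axis), with 1 line per gene (y axis), blue for the plus strand and orange for the minus strand. The first ACP2 exon overlaps the second NR1H3 exon, and the last exon of RBM4 lies between exons of RBM4B.

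Some reads were counted in more than 1 of these genes. The header of the table shows that a read in several genes of the same strand was added to each. ZFP91 (chromosome 11, 58579114 to 58621550, plus strand) shares 1743 of its 5725 exonic bases, 30.4%, with the read-through gene ZFP91-CNTF, which joins it to the neurotrophic factor gene CNTF. ZFP91-CNTF had 18, 31 and 29 counts, while CNTF itself had 0, 0 and 1. RBM4 shares 1138 of 4229 bases, 26.9%, with the read-through gene RBM14-RBM4, which had 29, 44 and 42 counts. RBM14, the upstream coactivator gene of that read-through, had 27, 28 and 20 counts, or ratios of 1.08 (0.613 to 1.90) and 0.866 (0.460 to 1.60). HYI lies on chromosome 1 (43451003 to 43453989, minus strand). All of its 1367 exonic bases also lie in exons of an opposite-strand gene, which is not reported here. MOV10 (chromosome 1, 112674312 to 112700746, plus strand) shares no exon bases in the table. GENCODE has an antisense gene within it (AL603832.1) and one within ZFP91 (AP001350.1) that the table does not list.

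The share of RBM4 in the counts of RBM4 and RBM4B went from 70.0% (siNC, 95% Clopper-Pearson interval 56.8 to 81.2) to 83.5% (siPRMT6-1, 73.9 to 90.7) and 82.7% (siPRMT6-2, 72.2 to 90.4). The siNC interval overlapped the others. NR1H3 held 85.4% of its pair in siNC (70.8 to 94.4), 89.7% (80.8 to 95.5) and 93.3% (85.9 to 97.5), which also overlapped. The counts of RBM4 and NR1H3 in these shares are those the genes were chosen for, and the difference between libraries was not tested, so the shares are a description.

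**Figure D5:**
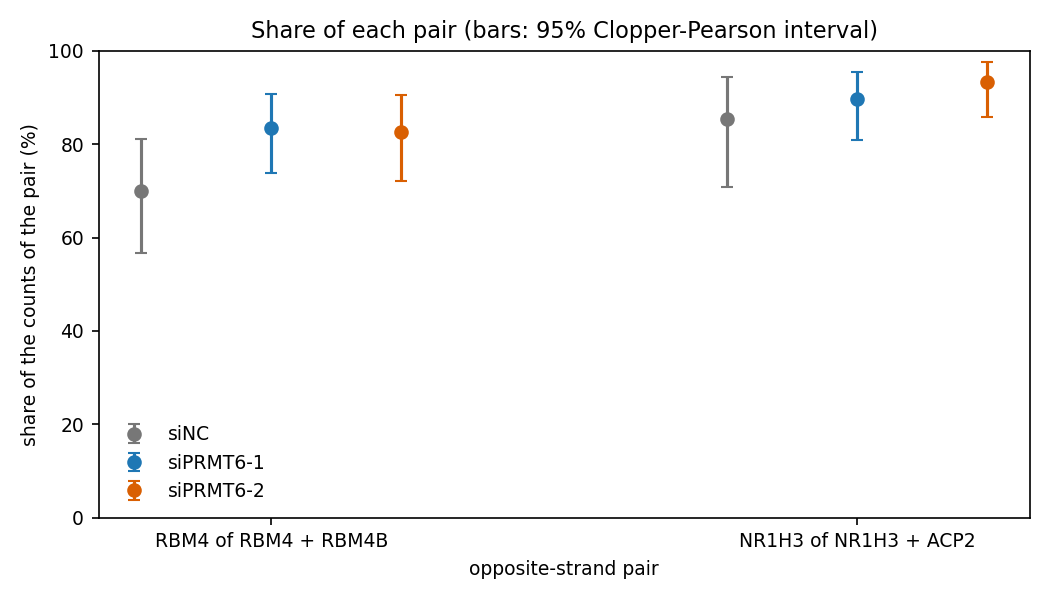
Share of RBM4 and NR1H3 (x axis) in the summed counts of each gene and its opposite-strand partner, in % (y axis), per library with 95% Clopper-Pearson intervals. In each pair the siNC interval overlaps those of both knockdown libraries.

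Per exonic length, HYI had the highest level of the 8 genes in each library, with 60.7, 108 and 162 CPM per kb in siNC, siPRMT6-1 and siPRMT6-2, and ACP2 the lowest, with 6.71, 9.32 and 7.85. All exonic bases of HYI lie opposite exons of another gene, and whether its level holds reads of that gene was not tested. In siNC the order was HYI, NR1H3 (39.2), RBM4 (25.7), RBM4B (25.3), B4GALT5 (19.7), MOV10 (18.4), ZFP91 (11.3) and ACP2, and the interval of the ratio between each pair of neighbours in it held 1. RBM4 and RBM4B had nearly the same siNC level on this scale, a ratio of 1.02 (0.573 to 1.88). With both siRNAs RBM4B came after ZFP91, the last but ACP2, at 20.5 against 20.7 CPM per kb with siPRMT6-1 and 21.4 against 25.9 with siPRMT6-2. The ratios of ZFP91 to RBM4B, 1.01 (0.545 to 2.00) and 1.21 (0.649 to 2.44), both held 1. Bulk levels cannot tell fewer cells with a transcript from less RNA per cell.

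Of the pathway genes around the members 0 passed edgeR's test in any list, as for all genes. Over all 6803 genes tested the median log2 fold changes were 0.01 with siPRMT6-1 and 0.00 with siPRMT6-2. A fold of 1.5 above siNC was reached by 14.7% and 17.9% of them, and a fold of 1.5 below by 13.9% and 15.4%, against which the counts in the lists are to be read. Tested were 4 other beta-1,4-galactosyltransferases, with medians of 0.07 and −0.59. With siPRMT6-1 0 of them reached that fold in either direction, and with siPRMT6-2 0 were higher and 2 lower, B4GALT2 (40, 45 and 20 counts) and B4GALT3 (31, 28 and 15). Of the glycosphingolipid list 2 other genes were tested, UGCG, which makes glucosylceramide (17, 30 and 16 counts), and B4GALNT1, a ganglioside synthase gene (22, 9 and 26). The 9 other tested genes of the liver X receptor list had medians of −0.05 and −0.41, with 0 higher and 1 lower by 1.5-fold with siPRMT6-1, and 1 and 2 with siPRMT6-2. SREBF1, a lipogenic transcription factor gene and a target of the receptor, had 73, 37 and 40 counts, and SCD, a fatty acid desaturase gene, had 15, 9 and 4. PLTP, a phospholipid transfer protein gene, had 275, 285 and 333 counts, NR1H2, which encodes liver X receptor beta, 7, 9 and 12, and LPCAT3, a phospholipid-remodelling enzyme gene, 193, 179 and 171. The 18 tested lysosomal hydrolases had medians of 0.05 and 0.32, with 1 higher and 1 lower with siPRMT6-1 and 5 and 2 with siPRMT6-2. Among them was MAN2B1, a lysosomal mannosidase gene, at 15, 30 and 27 counts. These genes and those named in the next paragraph were picked after their values were seen.

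The 12 other tested genes of RNA silencing and decay, the partners of MOV10, had medians of 0.28 and −0.08, with 1 higher and 1 lower by 1.5-fold with siPRMT6-1, and 2 and 1 with siPRMT6-2. TNRC6A, a scaffold of the silencing complex, had 7, 14 and 15 counts and UPF1, a helicase of nonsense-mediated decay, 50, 31 and 41. The 12 other RNA-binding motif and splicing genes had medians of 0.04 and 0.12, with 2 higher and 1 lower with each siRNA. PTBP1, a splicing repressor gene, had 88, 96 and 91 counts. The 7 other genes of noncanonical NF-kappaB signalling had medians of 0.05 and 0.20, with 1 higher and 2 lower with siPRMT6-1, and 2 and 0 with siPRMT6-2. NFKB2, the subunit gene of that branch, had 33, 23 and 67 counts, high with siPRMT6-2 alone. The 7 other tested genes of the list for glyoxylate and hydroxypyruvate metabolism had medians of −0.39 and −0.60. These medians do not cover the whole list. AGXT and HAO1 had 0 counts in every library, and GLYCTK and HOGA1 had too few counts to be tested. With either siRNA 0 were higher, and 2 and 4 were lower, against 13.9% and 15.4% lower over all genes tested. The 2 lower with siPRMT6-1 were GRHPR and SHMT2, and the 4 lower with siPRMT6-2 were PHGDH, PSAT1, PSPH and SHMT2. GRHPR had 13, 6 and 10 counts, log2 fold changes of −0.85 and −0.13. Whether the list moved as 1 pathway was not tested. The filter kept genes with enough counts in a single library, so these medians are descriptions.

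The genes nearest to B4GALT5 in pattern were sought among the other 1896 tested genes with at least 100 counts, by the distance between the pairs of log2 fold changes over the 2 siRNAs. FOSL2, an AP-1 transcription factor gene, was nearest at a distance of 0.32, with 30, 51 and 78 counts. SPARC, a matrix glycoprotein gene, followed at 0.52 with 69, 111 and 141 counts, and it shares exon bases with an opposite-strand gene. KIAA2013 (23, 35 and 47 counts, distance 0.63), SEMA4B (22, 30 and 49, distance 0.69) and MASTL (36, 52 and 66, distance 0.76) came next. The likeness rests on 3 libraries.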

How the data were processed

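The authors deposited raw counts per gene for 1 siNC and 2 PRMT6 knockdown libraries, prepared with a stranded kit for small amounts of total RNA, per the labels' protocols. The submitters' processing notes name STAR 2.7.8a, featureCounts 2.0.10 and hg38. The file headers give featureCounts as 2.0.1, with strand setting 1, UCSC gene models and reads of overlapping genes added to each. The input names carry marks of UMI-based duplicate removal, by a method the sources do not state.

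The members and lists were chosen with earlier results of these data known. The text names the members, genes sharing exon bases with them (some are not reported here), PRMT6, and the 5 genes nearest to B4GALT5. Computed here were edgeR 4.0.16 quasi-likelihood fits (R 4.3.3, TMM, filterByExpr with a minimum count of 10 and a minimum total of 15, adjusted p threshold 0.05), tested on simulated data, DESeq2 1.42.0, and exact intervals at 95% with scipy 1.17.1. CPM uses TMM library sizes, and log2 differences a prior count of 2. Intervals cover counting error only. Alternatives were other library sizes, no filter, other tests, leaving out a knockdown library, and dropping genes with exons opposite to those of another gene.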

Additional observations from a re-analysis of the deposited data

How the results depend on the processing

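Of 138 alternative values 134 kept their direction and their side of the threshold or stayed within their interval. This tally is no test of robustness. The intervals of the ratios are far wider than the shifts by other library sizes given below, and the 6 genes were chosen as high with both siRNAs. Ratios of B4GALT5 and HYI whose intervals came to hold 1 are among the 134. With edgeR's older quasi-likelihood method 32 genes were called in place of 0, none of them among the 8, with adjusted p of at least 0.766 for the members, while the other fits called 0. Per exonic base the share of RBM4 in its pair was 50.4% in siNC, 68.9% in siPRMT6-1 and 67.5% in siPRMT6-2. These shares divide each count by the exonic bases of its gene, 4229 for RBM4 and 1844 for RBM4B, in every library alike. Leaving out 1 knockdown library, a value without a test, gave log2 fold changes of 1.09 to 1.60 for B4GALT5, 1.01 to 1.42 for NR1H3 and 0.76 to 0.78 for RBM4. With total counts as library sizes B4GALT5 was 1.35 times (0.986 to 1.84) and HYI 1.40 times (0.972 to 2.02) as high in siPRMT6-2 as in siPRMT6-1, and the intervals also held 1 with library sizes that leave out interferon-stimulated genes. Over all 24 ratios the other library sizes moved the values by −6.21 to 3.53%. Dropping genes that share opposite-strand exon bases left no value for NR1H3 or HYI, and calls could not be counted with 1 library against 1. No paired analysis was possible because the control is 1 library. Depth limits ACP2 and RBM4B most, whose intervals span 1.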

Other observations

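Genes within 10000 bases of the members but sharing no exon base with them were looked at after the values were seen. RHOC, a small GTPase gene on the opposite strand whose end lies 380 bases from that of MOV10, gave 30 (siNC), 37 (siPRMT6-1) and 54 counts (siPRMT6-2). Its ratios to siNC were 1.28 (0.772 to 2.15, exact binomial) and 2.10 (1.32 to 3.41), beside 1.76 and 2.48 for MOV10. DDB2, a DNA damage recognition gene that ends 83 bases from ACP2, had 39, 58 and 24 counts, 1.55 times siNC (1.01 to 2.39) and 0.719 times (0.414 to 1.23), and was 0.465 times as high with siPRMT6-2 as with siPRMT6-1 (0.276 to 0.760). LPXN, an adaptor protein gene on the opposite strand 874 bases from ZFP91, had 0, 3 and 5 counts. CAPZA1, beside MOV10 on its strand, had 14, 12 and 12 counts, and MADD, 342 bases beyond NR1H3, had 10, 12 and 10. These are single libraries. LPXN did not pass the filter on low counts and was not tested, and none of the other genes named here passed edgeR's test over all genes.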
